A study of Homo sapiens with 4 samples.

Results

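The genes examined here make, move and use microRNAs. They are DROSHA and DGCR8, XPO5, DICER1 and TARBP2, the Argonaute genes AGO1, AGO2, AGO3 and AGO4, and LIN28B. Their rows were taken by symbol and the rule uses no measured value, but the set was drawn up with earlier results of these data known. They account for 10 of the 60671 gene rows in the table. RNA sequencing had been done on SK-N-BE(2), an established human neuroblastoma cell line with amplified MYCN. The 2 control libraries (shNC) came from cells carrying a scrambled short hairpin RNA, and the 2 knockdown libraries (shMETTL14) from cells carrying a hairpin against METTL14. The study's methods describe its hairpin lines as stable lines made with a pLKO.1 lentiviral vector and selected in puromycin. They do not name the sequenced cells, but if both groups were made this way, vector and drug were shared. The study used a pair of METTL14 hairpins, and the labels do not say which of them these libraries carried. The libraries are labelled only as replicates, so the p-values measure the spread between these libraries, which may be technical.

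METTL14 encodes the RNA-binding partner of METTL3 in the enzyme complex that writes N6-methyladenosine (m6A) into RNA. A microRNA starts as a hairpin within a long primary transcript. In the nucleus the microprocessor, made of the RNase DROSHA and its RNA-binding partner DGCR8, cuts the hairpin out, and m6A on primary transcripts has been described to help DGCR8 recognise them. Exportin 5, the product of XPO5, carries the hairpin to the cytoplasm, where DICER1 with its partner TARBP2 trims it to a duplex. An Argonaute protein keeps 1 strand of that duplex and uses its seed, bases 2 to 8, to find target RNAs. LIN28B binds the precursors of the let-7 family and blocks their maturation, let-7 in turn represses LIN28B, and LIN28B is known as an oncogene in neuroblastoma.

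The let-7 sequences are shown because LIN28B is both their inhibitor and their target, with the seed in capitals. They are written 5′ to 3′ and taken from RefSeq (GRCh38.p14). There, 14 microRNA genes gave a mature strand with the seed GAGGUAG, under 11 mature names. The strands below come from 6 of these genes, those whose mature strand lay within the span of a tested gene named as a microRNA host. Genes with other names were not searched as hosts, so the remaining let-7 genes may also lie within tested genes.
hsa-let-7a-5p: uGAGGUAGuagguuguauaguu
hsa-let-7b-5p: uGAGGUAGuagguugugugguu
hsa-let-7c-5p: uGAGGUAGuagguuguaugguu
hsa-let-7i-5p: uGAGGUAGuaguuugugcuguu
hsa-miR-4458: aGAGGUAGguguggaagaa
The strands share the seed and differ mostly in the bases after it.

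The DNA letters that pair with this seed are CTACCTC. The word was searched on the transcript strand, in the 3′ UTR of the transcript with the longest 3′ UTR of each gene in GENCODE 29 (GRCh38). It occurred 4 times in LIN28B and 2 times in AGO2. AGO1, AGO3 and TARBP2 each held it 1 time. It was not found in that window of DROSHA, DGCR8, DICER1, XPO5 or AGO4. Thus 5 of the 10 genes held the word, against 12.8% of the 12758 tested genes with a 3′ UTR and 21.5% of the 5406 whose 3′ UTR had at least 2000 bases. The 3′ UTRs of AGO1 (10921 bases), AGO2 (11888 bases) and AGO3 (16755 bases) were far longer than the median of 1658.5 bases, and that of LIN28B had 4549 bases. The LIN28B sites are printed because no other of the 10 genes held as many, with the word in capitals, on the plus strand of chromosome 6.
LIN28B chr6:105078819-105078841: tgcaaagtCTACCTCatgcaagt
LIN28B chr6:105081246-105081268: gatagtaaCTACCTCtgagtttg
LIN28B chr6:105081428-105081450: gcaaaaggCTACCTCatagttga
LIN28B chr6:105082867-105082889: ggtgttgaCTACCTCttgaatca
The words at 105078819 and 105081428 were followed by an A, the base that at this place favours targeting by Argonaute-bound microRNAs. A match of letters describes the sequence and is not a measured site, and mature microRNAs were not measured in these mRNA libraries.

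The libraries held between 18925786 and 19886214 counts in genes. METTL14, the targeted gene, had 753 and 754 counts in shNC libraries 1 and 2 and 303 and 321 in shMETTL14 libraries 1 and 2. It fell to 41.7% of the control level (log2 fold change -1.26, SE 0.0832, adjusted p = 3.64e-11, edgeR quasi-likelihood test). All 8 neuroblastoma markers (PHOX2A, HAND2, GATA3, ISL1, DBH, TH and MYCN among them) were measured and summed to between 4828 and 4930 CPM (counts per 1000000 counts in genes) in all 4 libraries. The steady sum hides changes of single markers. In shMETTL14, 2 of the 8 were called higher, MYCN among them, and 6 lower, with a median log2 fold change of -0.23. Markers of other cells (PTPRC, CD3E, EPCAM, KRT5, PECAM1, COL1A1, ALB) summed to 19.8 and 20.1 CPM in shNC and 13.02 and 14.1 in shMETTL14. KRT5 was at 0, and CD3E, PECAM1 and ALB had at most 4 counts in any library. EPCAM (-0.72, adjusted p = 0.00583) and COL1A1 (-0.48, adjusted p = 0.00222) fell, and their part in the results that follow was not tested. Of all 16309 genes tested, 8561 passed an adjusted p under 0.05 (52.5%), 4438 higher (27.2%) and 4123 lower (25.3%) in shMETTL14. With upper quartile scaling the split was 3550 higher and 4961 lower. In 75.5% of tested genes the groups did not overlap.

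All 10 genes were measured well enough to be tested. DGCR8, LIN28B, AGO2, DROSHA and XPO5 rose and DICER1 fell, while TARBP2, AGO1, AGO3 and AGO4 did not pass. A count of 6 called genes of 10 stands beside 52.5% of all tested genes called, and 6 genes with groups that did not overlap stand beside 75.5%. The 5 that rose were 3 without shMETTL14 library 1 and with upper quartile scaling. The changes were small. The median log2 fold change of the 10 genes was 0.09 against -0.00095 for all tested genes, and their median absolute change was 0.14 against 0.30. The counts come from whole cultures, so fewer cells that express a gene and less of its RNA per cell cannot be told apart.

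**Figure D1:**
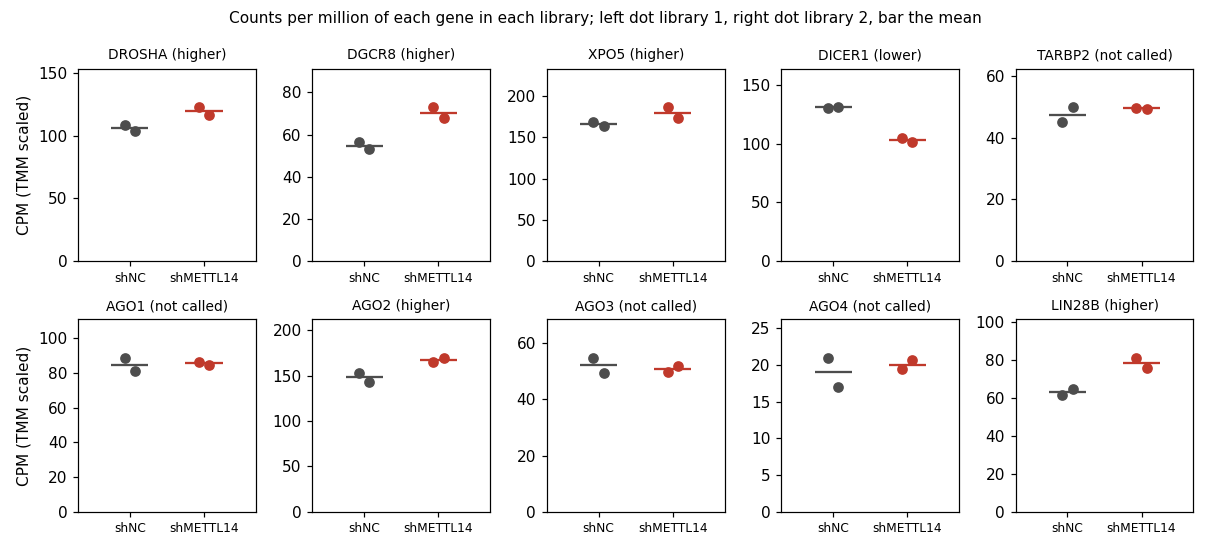
Levels in CPM (vertical axes from 0, TMM scaled) of the 10 genes in the 2 shNC libraries (grey) and the 2 shMETTL14 libraries (red), with a bar at each group mean and the call in the panel title. The shMETTL14 dots of DICER1 (105 and 102) lie below both shNC dots (131 and 131), those of DGCR8 and LIN28B lie above, and the dots of TARBP2, AGO1, AGO3 and AGO4 overlap.

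The microprocessor genes both rose. DGCR8 (ENSG00000128191, chr22:20080232-20111877, plus strand) had 56.5 and 53.1 CPM (scaled by TMM, a method that corrects library sizes for composition) in the shNC libraries and 73.1 and 67.8 in the shMETTL14 libraries. Both knockdown libraries were above both controls. DGCR8 showed the largest absolute change of the 10 genes, to 128.5% of the control mean (log2 fold change 0.36, SE 0.0578, 95% interval 0.24 to 0.48, adjusted p = 1.74e-05), and 42.3% of all tested genes changed by more. DROSHA (ENSG00000113360, chr5:31400497-31532196, minus strand) had 109 and 104 CPM in shNC and 123 and 117 in shMETTL14. Its groups did not overlap either, and it rose to 112.6% of control (log2 fold change 0.17, SE 0.0468, 95% interval 0.07 to 0.27, adjusted p = 0.00406). The call for DROSHA was lost with upper quartile scaling (0.10, adjusted p = 0.0702) and without shMETTL14 library 1 (0.14, adjusted p = 0.0713).

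A ratio of the counts of a pair of genes within a library does not depend on how the libraries are scaled. The ratio of DGCR8 to DROSHA counts was 0.518 and 0.510 in shNC and 0.594 and 0.580 in shMETTL14. DGCR8 thus rose relative to DROSHA in both knockdown libraries, although an exact two-sided permutation test of 2 against 2 libraries cannot go below p = 0.33, the value found here. DGCR8 also carries microRNA hairpins within its own exons, MIR3618 and MIR1306, which the microprocessor is known to cut and so to lower its own subunit's mRNA. The mature strand of the first is shown for that reason, with the seed in capitals.
hsa-miR-3618: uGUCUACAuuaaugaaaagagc
Its hairpin lies at chr22:20085746-20085833. The rows of MIR3618 and MIR1306 held 0 counts in all 4 libraries, so these data hold no separate readout of either hairpin.

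Export and dicing genes went different ways. XPO5 (ENSG00000124571, chr6:43522330-43576075, minus strand) had 168 and 164 CPM in shNC and 187 and 173 in shMETTL14. The groups did not overlap, but the gap was narrow beside the spread of the knockdown libraries. It rose to 108.2% of control (log2 fold change 0.11, SE 0.0445, 95% interval 0.02 to 0.21, adjusted p = 0.0357). Its call did not hold under upper quartile scaling (0.05), library size alone (0.07), DESeq2 (0.12, adjusted p = 0.134), a minimum of 10 counts per library (0.10), without shNC library 2 (0.10) and without shMETTL14 library 1 (0.06). XPO5 also shares 348 exon bases with POLR1C on the opposite strand, which had 480 and 487 counts in shNC and 603 and 549 in shMETTL14 (log2 fold change 0.26, adjusted p = 0.0101; the call was lost under 4 of 12 alternatives). The strand setting of the counting was not given in the sources used here, so reads from the shared bases cannot be told apart.

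DICER1 (ENSG00000100697, chr14:95086228-95158010, minus strand), the enzyme that produces the mature duplex, was the only one of the 10 genes to fall. It had 131 and 131 CPM in the shNC libraries and 105 and 102 in the shMETTL14 libraries. Both knockdown libraries lay well below the controls, at 78.8% of the control mean (log2 fold change -0.34, SE 0.0445, 95% interval -0.44 to -0.25, adjusted p = 1.10e-06). Over all alternatives the log2 change stayed between -0.41 and -0.31, and 44.5% of all tested genes changed by more. DICER1-AS1, which shares 80 exon bases with DICER1 on the opposite strand, had 199 and 193 counts in shNC and 122 and 128 in shMETTL14 and also fell (log2 fold change -0.64, SE 0.134, adjusted p = 3.92e-04). As for XPO5, reads from the shared bases of the pair cannot be told apart without the strand setting. TARBP2 (ENSG00000139546, chr12:53500921-53506431, plus strand), the double-stranded RNA-binding partner of DICER1, had 45.0 and 50.0 CPM in shNC and 49.8 and 49.3 in shMETTL14. The groups overlapped, and the log2 fold change was 0.06 (SE 0.0649, 95% interval -0.07 to 0.20, adjusted p = 0.445) and turned to -0.01 with upper quartile scaling.

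Within libraries, DICER1 fell relative to DROSHA and to TARBP2. Its counts were 1.20 and 1.26 times those of DROSHA in shNC and 0.852 and 0.870 times in shMETTL14. There were thus more DICER1 than DROSHA counts in both controls and fewer in both knockdown libraries. The ratio of DICER1 to TARBP2 counts went from 2.90 and 2.63 to 2.105 and 2.06. Each of these exact permutation tests gave p = 0.33, the smallest value possible.

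**Figure D2:**
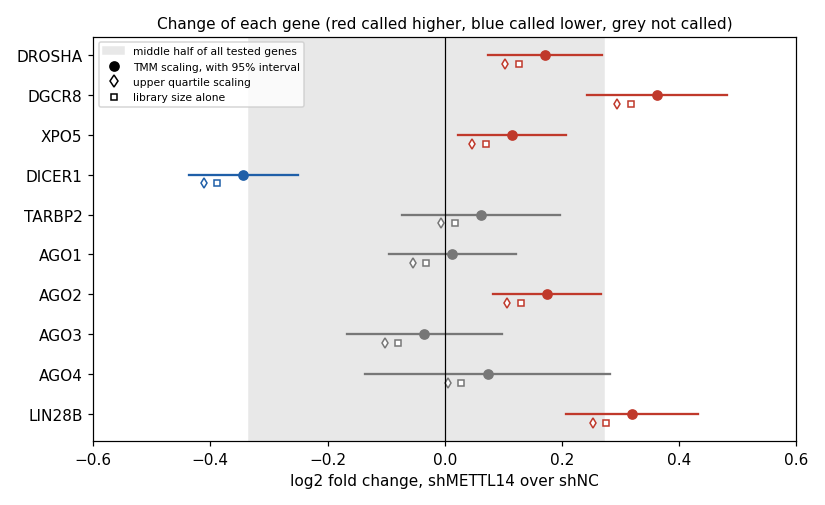
Log2 fold change of shMETTL14 over shNC for the 10 genes with TMM scaling (filled circles, lines the 95% interval), with upper quartile scaling (open diamonds) and with library size alone (open squares); the grey band spans the middle 50% of tested genes, from -0.33 to 0.27. DGCR8 (0.36), LIN28B (0.32) and DICER1 (-0.34) lie outside the band, and AGO1 changes sign with the scaling.

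Of the Argonaute genes, AGO2 alone passed the test. AGO2 (ENSG00000123908, chromosome 8, minus strand) encodes the family member able to slice a perfectly paired target. It had 153 and 143 CPM in shNC and 165 and 170 in shMETTL14. The groups did not overlap, and AGO2 rose to 112.9% of control (log2 fold change 0.17, SE 0.0444, 95% interval 0.08 to 0.27, adjusted p = 0.00225). With upper quartile scaling its call held only narrowly (0.11, adjusted p = 0.0485). AGO4, AGO1 and AGO3 lie side by side on the plus strand of chromosome 1, at chr1:35808172-35857890, chr1:35869808-35930528 and chr1:35930718-36072500, and none of them passed.

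AGO1 (ENSG00000092847) had 88.6 and 80.9 CPM in shNC and 86.5 and 84.6 in shMETTL14, with both knockdown libraries between the controls (log2 fold change 0.01, 95% interval -0.09 to 0.12, adjusted p = 0.851). AGO3 (ENSG00000126070) had 54.7 and 49.3 CPM against 49.8 and 51.8 (log2 fold change -0.03, 95% interval -0.17 to 0.10, adjusted p = 0.673). AGO4 (ENSG00000134698), the lowest of the 10 genes in CPM, had 21.0 and 17.1 CPM against 19.4 and 20.6 (log2 fold change 0.07, 95% interval -0.14 to 0.28, adjusted p = 0.568). In all 3 genes the knockdown libraries lay within the range of the controls, and shNC library 1 was above shNC library 2. Leaving out shNC library 2 turned AGO1 (-0.05) and AGO4 (-0.06) and leaving out shNC library 1 turned AGO3 (0.04), so no direction is given for them. The interval of AGO4 holds the change seen for AGO2, and those of AGO1 and AGO3 do not. The Argonaute proteins are close paralogs, and how reads shared between near-identical stretches were assigned was not given in the sources used here.

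AGO2 gave the largest part of the Argonaute transcripts in every library. Its share of the summed AGO1 to AGO4 counts per kilobase of exon was 44.9% and 46.3% in shNC and 48.1% and 48.5% in shMETTL14, 2.67 percentage points more on average. The shares of AGO1 were 29.6% and 29.8% against 28.7% and 27.6%, and those of AGO3 were 12.01% and 11.9% against 10.9% and 11.1%. For these 3 genes the groups did not overlap, and the exact two-sided permutation test gave p = 0.33, the smallest possible. The shares of a library add up to a whole, so a larger share of AGO2 lowers the others and these are not separate results. In CPM, AGO1 and AGO3 overlapped and did not pass. The share of AGO4 overlapped (13.4% and 11.998% against 12.3% and 12.9%; exact permutation p = 1). The ratio of AGO2 to AGO1 counts rose from 1.73 and 1.77 to 1.91 and 2.00.

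**Figure D3:**
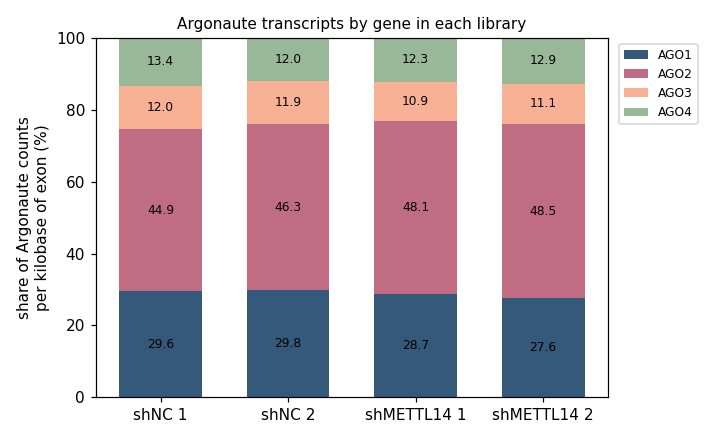
Share of AGO1, AGO2, AGO3 and AGO4 in the summed Argonaute counts per kilobase of exon (vertical axis in percent, from 0 to 100), as stacked bars for each of the 4 libraries. The AGO2 segment takes 44.9% and 46.3% in the shNC libraries and 48.1% and 48.5% in the shMETTL14 libraries.

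LIN28B (ENSG00000187772, chr6:104936616-105083332, plus strand), the let-7 inhibitor whose sites are printed above, rose. It had 61.2 and 64.3 CPM in shNC and 81.0 and 75.7 in shMETTL14, with both knockdown libraries above the controls. The level was 124.8% of control (log2 fold change 0.32, SE 0.0541, 95% interval 0.21 to 0.43, adjusted p = 3.55e-05). Its log2 change stayed between 0.25 and 0.38 over all alternatives. The ratio of LIN28B to DICER1 counts went from 0.469 and 0.490 to 0.773 and 0.744. LIN28B-AS1, on the opposite strand and sharing 67 exon bases, rose from 37 and 29 counts to 51 and 55 (log2 fold change 0.69, adjusted p = 0.0376), a call lost under 7 of 12 alternatives, and its reads over the shared bases cannot be told apart from those of LIN28B either. The related gene LIN28A had 0 counts in every library.

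Levels of different genes were compared per kilobase of annotated exon. In the shNC libraries XPO5 stood highest (19.7 and 19.3 CPM per kilobase), followed by DROSHA (14.01 and 13.4), TARBP2 (11.01 and 12.2), DICER1 (10.6 and 10.7), LIN28B (10.2 and 10.7), AGO2 (9.67 and 9.05), DGCR8 (7.73 and 7.26), AGO1 (6.38 and 5.82), AGO4 (2.89 and 2.35) and AGO3 (2.59 and 2.33). DICER1 and LIN28B overlapped in that order, as did AGO4 and AGO3. In the shMETTL14 libraries DICER1 (8.52 and 8.27) stood at rank 7 instead of rank 4, below AGO2 (10.4 and 10.7) and DGCR8 (9.99 and 9.27), and LIN28B (13.5 and 12.6) at rank 3 instead of rank 5. The order depends on the length used. The length of the transcript with the longest coding sequence was also used, a choice made after the data were seen. With it DROSHA stood at rank 4 in both groups, DICER1 went from rank 5 to rank 7 and LIN28B from rank 3 to rank 2.

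The genes of proteins that assist the microprocessor were measured in full, 19 of 19 tested. Of these, 9 rose, 2 fell and 8 did not pass, with a median log2 fold change of 0.08. The share called, 57.9%, was near the 52.5% of all tested genes. With upper quartile scaling or library size alone the split was 5 higher and 3 lower. SRRT, which links the nuclear cap-binding complex to DROSHA, rose most (log2 fold change 0.43, SE 0.0436, adjusted p = 2.83e-08; 2448 and 2269 counts against 3233 and 3095). DDX17 fell most (-0.47, SE 0.0365, adjusted p = 4.63e-10; 15430 and 14583 counts against 10782 and 10698). Its paralog DDX5, the other RNA helicase of the complex, rose (0.41, SE 0.0368, adjusted p = 5.25e-09; 15005 and 15034 counts against 20012 and 19609). The other one to fall was HNRNPA1, an RNA-binding protein that assists cleavage of a few hairpins (-0.38, adjusted p = 3.37e-09). DDX5 and HNRNPA1 are named after their values were seen or because so few fell.

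Of the genes of partners of export and dicing, 3 of 6 rose, 1 fell and 2 did not pass (median 0.10), beside 52.5% of all tested genes called. PRKRA, which like TARBP2 binds DICER1, rose (log2 fold change 0.25, SE 0.0552, adjusted p = 5.42e-04; 1160 and 1187 counts against 1369 and 1412). RANBP1 (0.50, adjusted p = 3.36e-10) and RANGAP1 (0.12, adjusted p = 0.0202), which regulate the Ran GTPase that powers nuclear export, also rose. XPO1, the main protein exporter, fell (-0.12, adjusted p = 0.0153). Its call was lost without shNC library 1 (adjusted p = 0.0862), without shMETTL14 library 2 (0.187) and with DESeq2 (0.0533), and that of RANGAP1 under 5 of 12 alternatives. DICER1 itself fell while 1 of its RNA-binding partners rose and the other, TARBP2, did not pass.

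Partners of Argonaute in silencing had 22 of 23 genes tested. Of these, 10 rose, 6 fell and 6 did not pass (median 0.09), and the split was 8 to 8 with upper quartile scaling. The share called was 72.7%, against 52.5% of all tested genes (27.2% higher and 25.3% lower). P4HB rose most (0.51, SE 0.0373, adjusted p = 1.78e-10), and PTGES3, a cochaperone of HSP90, fell most (-0.44, SE 0.0388, adjusted p = 4.44e-09). The genes of the GW182 proteins, which bridge Argonaute to deadenylases, are given beside these although they were picked after their values were seen. TNRC6A rose (0.15, SE 0.0457, adjusted p = 0.00849), whereas TNRC6B (-0.40, SE 0.0622, adjusted p = 1.29e-05; 2024 and 1640 counts against 1414 and 1344) and TNRC6C (-0.22, SE 0.0852, adjusted p = 0.0323) fell. The calls of TNRC6A and TNRC6C were each lost under 4 of 12 alternatives, DESeq2 among them, and that of TNRC6B held.

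Genes of tailing and turnover, which lengthen or degrade microRNAs and their precursors, had 14 of 15 tested, with 3 higher, 4 lower and 7 not passing (median -0.0049). The share called was 50.0%, against 52.5% of all tested genes. TUT4 and TUT7, uridyl transferases that can act on let-7 precursors, both fell. TUT4 had 2340 and 2127 counts in shNC and 1798 and 1734 in shMETTL14 (log2 fold change -0.33, SE 0.0471, adjusted p = 4.25e-06), and TUT7 had 763 and 767 against 599 and 594 (-0.35, SE 0.0728, adjusted p = 3.52e-04). DIS3L2, the exonuclease that degrades the uridylated precursor, rose (555 and 607 counts against 732 and 656; 0.26, SE 0.0813, adjusted p = 0.00929). XRN1 (-0.28) and ZSWIM8 (-0.25) fell, and ERI1 (0.25) and TENT2 (0.22) rose. Without shMETTL14 library 1 and with DESeq2 the 3 that rose were 1, since DIS3L2 (adjusted p = 0.103 and 0.0874) and TENT2 (0.0598 and 0.0721) lost their calls. The call of DIS3L2 was also lost without shNC library 1, and that of ZSWIM8 without shMETTL14 library 2 and with DESeq2. LIN28B thus rose while TUT4 and TUT7 fell, and a link between these changes was not tested.

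**Figure D4:**
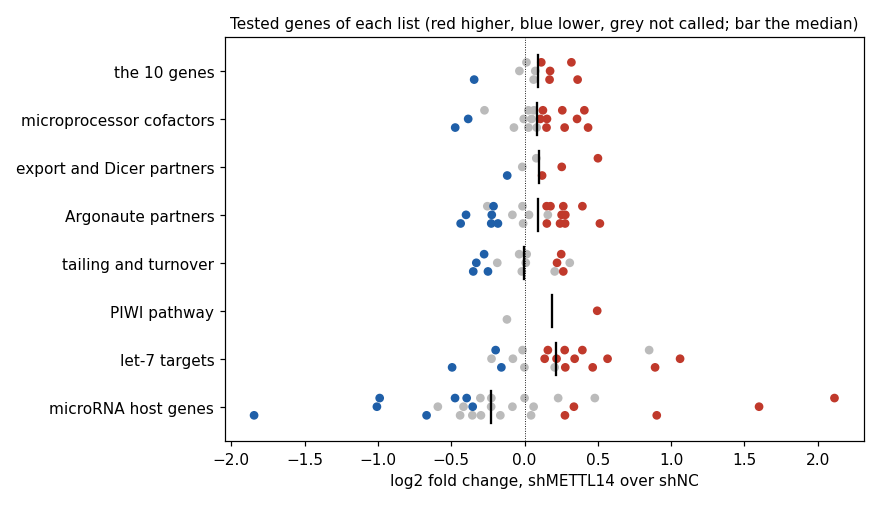
Log2 fold change of shMETTL14 over shNC (horizontal axis) for each tested gene of the 10 genes and 7 related lists, coloured red where higher, blue where lower and grey where not called, with a bar at each list's median. The medians run from -0.23 for microRNA host genes to 0.21 for let-7 targets, and every list with more than 2 tested genes holds genes called in both directions.

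Genes described as targets of let-7 had 20 of 25 members tested. Of these, 11 rose, 3 fell and 6 did not pass, with a median log2 fold change of 0.21. The share called was 70.0%, against 52.5% of all tested genes (27.2% higher and 25.3% lower). The word CTACCTC was present in the 3′ UTR of 16 of the 20. MYCN rose (log2 fold change 0.28, SE 0.0334, adjusted p = 3.84e-07; 52554 and 49710 counts against 61727 and 61457) and is named, after its value was seen, because it is amplified in this line. HMGA1 fell most (-0.49, SE 0.0424, adjusted p = 2.55e-09), and CDK6 (-0.16) also fell. HMGA2, a known let-7 target, had 3 and 2 counts in shNC and 0 in both shMETTL14 libraries and was not tested. The list went both ways, and no let-7 level was measured here.

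Primary microRNA transcripts were read only through genes named as microRNA hosts. Of 84 host genes named as such, 27 had enough counts to be tested and 32 had none. Of the tested ones 5 rose, 7 fell and 15 did not pass, with a median of -0.23, and with upper quartile scaling or library size alone 4 rose and 10 fell. The share called was 44.4%, against 52.5% of all tested genes. Without shMETTL14 library 1 and with DESeq2 the 7 that fell were 4. MIR137HG rose from 136 and 105 counts to 371 and 355 (log2 fold change 1.60, SE 0.123, adjusted p = 4.25e-10). MIR22HG rose from 19 and 27 counts to 112 and 87 (2.11, SE 0.264, adjusted p = 6.53e-07). MIR9-3HG (0.90), MIR17HG (0.34) and MIR4458HG (0.28, adjusted p = 0.0489) were the others that rose, and the call of MIR4458HG was lost under 11 of 12 alternatives.

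Among these named host genes, those of let-7 hairpins did not move as one, as was seen after their values were read. MIR99AHG, which holds let-7c and miR-99a, went from 391 and 384 counts to 191 and 192 (log2 fold change -1.01, SE 0.103, adjusted p = 3.63e-08), the largest fall among host genes of mean log2 CPM of at least 2. MIR100HG, which holds let-7a, miR-100 and miR-125b, fell from 414 and 424 counts to 267 and 257 (-0.67, SE 0.0956, adjusted p = 4.22e-06). MIRLET7BHG, the host of let-7a and let-7b hairpins, had 587 and 501 counts against 598 and 530 and did not pass (0.06, adjusted p = 0.564), nor did MIRLET7IHG (-0.30, adjusted p = 0.0709) or MIRLET7A1HG (0.23, adjusted p = 0.138), a let-7 host by name within which no let-7 strand was placed here. The microRNAs that MIR99AHG and MIR100HG carry beside let-7 are shown with those of MIR137HG, MIR9-3HG and MIR17HG, seeds in capitals, from RefSeq (GRCh38.p14).
hsa-miR-99a-5p: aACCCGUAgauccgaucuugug
hsa-miR-100-5p: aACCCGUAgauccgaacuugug
hsa-miR-125b-5p: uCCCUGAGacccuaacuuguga
hsa-miR-137-3p: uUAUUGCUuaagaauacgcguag
hsa-miR-9-5p: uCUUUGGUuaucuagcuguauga
hsa-miR-17-5p: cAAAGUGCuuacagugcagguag
hsa-miR-20a-5p: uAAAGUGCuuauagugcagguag
The strands miR-99a-5p and miR-100-5p share the seed ACCCGUA and lie in the hosts that fell on chromosomes 21 and 11. The strands miR-17-5p and miR-20a-5p share AAAGUGC and come from the same host on chromosome 13, which rose. The strand miR-9-5p is also carried by MIR9-1HG, which did not pass (log2 fold change -0.08). The hairpins of MIR99AHG, MIR100HG, MIR9-3HG and MIR9-1HG lie in introns, so exon counts of these hosts describe the spliced RNA and not the hairpin.

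**Figure D5:**
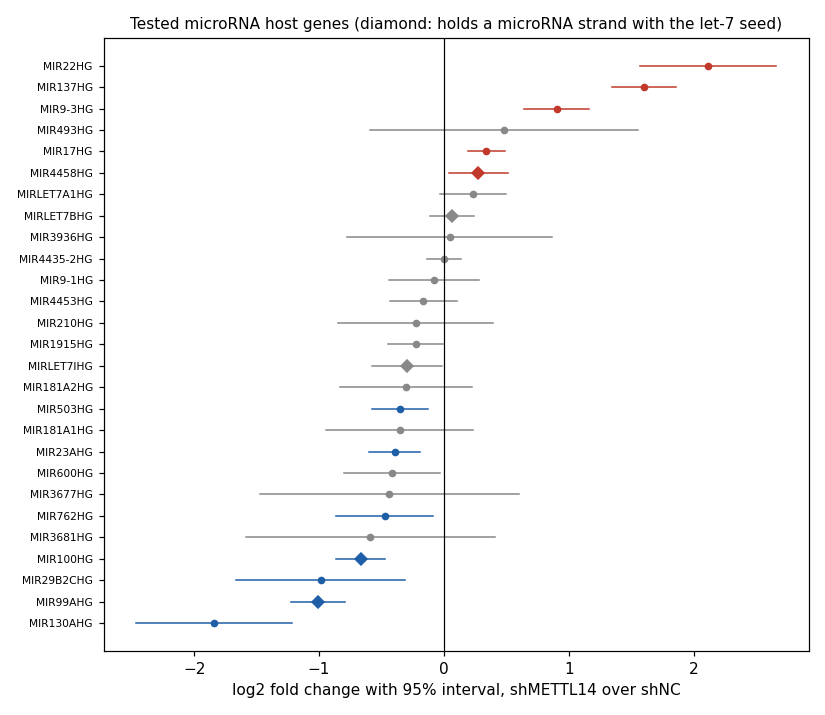
Log2 fold change of shMETTL14 over shNC with its 95% interval (horizontal axis) for the 27 tested microRNA host genes, red where higher, blue where lower and grey where not called; diamonds mark hosts whose span holds a microRNA strand with the let-7 seed. MIR22HG (2.11) and MIR137HG (1.60) stand at the top and MIR99AHG (-1.01) and MIR130AHG (-1.84) at the bottom, and the diamonds are spread from -1.01 to 0.28.

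Hairpin genes themselves were almost unread. Of 1850 rows annotated as microRNA genes, 1345 were at 0 in all 4 libraries and 29 were tested, of which 2 rose, 4 fell and 23 did not pass (median -0.19). The share called was 20.7%, against 52.5% of all tested genes. The 6 called were 2 without shNC library 1 and 3 without any 1 of the other libraries. These counts are fragments of longer RNA that cover a hairpin and are not mature microRNA. MIR1244-2, a member of a set of near-identical copies whose reads are uncertain, rose from 70 and 87 counts to 130 and 144 (log2 fold change 0.81, SE 0.176, adjusted p = 5.30e-04), and MIR573 was the other that rose. MIR10B had 89 and 78 counts in shNC and 36 and 20 in shMETTL14 and fell (-1.56, SE 0.270, adjusted p = 4.46e-05), and MIR331, MIR659 and MIR1915 fell from at most 14 counts.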

How the data were processed

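RNA of 2 shNC and 2 shMETTL14 libraries of SK-N-BE(2) cells was sequenced as paired ends on an Illumina NovaSeq. The authors deposited raw counts per Ensembl gene, not normalized, in the layout of htseq-count. The submitters' processing notes name HISAT2 2.1.0, StringTie 1.3.6, HTSeq 0.13.5, edgeR and GRCh38/hg38, without roles. The annotation release and strand setting were not given in the sources used here. Lines naming no gene held 19.1% to 19.9% of counts and were left out. Of 60671 IDs, 60401 were matched to symbols and 58453 to GENCODE 29, which gave positions and exon lengths.

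Genes kept by filterByExpr (16309) were scaled by TMM and tested with edgeR 4.0.16 in R 4.3.3 (quasi-likelihood F-test, group only). P-values were adjusted by Benjamini-Hochberg over all tested genes and called under 0.05. Fold changes are log2 of shMETTL14 over shNC. The fit was tested on simulated data first. Alternatives were RLE, upper quartile and library size scaling, other filters, a replicate block, leaving out each library, DESeq2 1.42.0 and limma 3.58.1 (voom). Shares and ratios were compared by exact permutation, which cannot go below p = 0.33. Intervals and depth cover counting and library spread only.

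Members and lists were chosen with earlier results of these data known. All 10 genes are named; of each list, the called genes with the largest rise and fall at mean log2 CPM of at least 2 are named, with any gene that a count of 5 or fewer rests on. Genes outside this rule, the let-7 hosts, MIR22HG and MIR130AHG included, were named after their values were seen. A few list genes that the rule would name are not reported here. Replicate numbers did not pair the libraries.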

Additional observations from a re-analysis of the deposited data

How the results depend on the processing

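Directions and calls of METTL14, DGCR8, DICER1, AGO2 and LIN28B held under all 12 alternatives, that of AGO2 only narrowly with upper quartile scaling. With upper quartile scaling DROSHA (0.10) and XPO5 (0.0467) were no longer called, TARBP2 (-0.0056) and AGO1 (-0.0544) turned, 4 of the 10 genes were called, and 2 PIWI pathway genes passed. With library size alone XPO5 (0.0696) lost its call and AGO1 turned (-0.0317). These scalings moved the median of all genes by -0.0676 and -0.0448. Under a minimum of 10 counts per library XPO5 (0.0962) lost its call and AGO1 turned (-0.0049). DESeq2 called 5546 genes in place of 8561, did not call XPO5 (0.12), and called 2 export and dicing partners, 2 hairpin genes, 0 PIWI pathway genes and 4 tailing and turnover genes. The cause of these differences was not tested. Leaving out 1 library at a time gave log2 changes from 0.14 to 0.22 for DROSHA, 0.0627 to 0.18 for XPO5, -0.0161 to 0.14 for TARBP2, -0.0458 to 0.0766 for AGO1, -0.10 to 0.0377 for AGO3 and -0.0622 to 0.23 for AGO4. It left 4 to 6 of the 10 genes called, 2 to 3 hairpin genes and 0 to 1 PIWI pathway genes. The 4 were found without shMETTL14 library 1, and the lone library left in a group was assumed to vary like the other group. Same-numbered libraries correlated at r = 0.0695 across 11614 genes in their deviations from the group means, and with 2 pairs the numbers were not taken to pair the libraries. A fit with the replicate number as a block called 8926 genes and the same 6 of the 10, with DICER1 at -0.34 and DGCR8 at 0.36.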

Other observations

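The PIWI pathway, which guides germline small RNAs through a separate branch of the Argonaute family, was nearly silent in these cells. Of its 12 genes, 2 had enough counts to be tested. PIWIL1, PIWIL2, PIWIL3 and PIWIL4 had at most 10 counts in any library. PLD6, a mitochondrial nuclease, had 190 and 128 counts in shNC and 214 and 231 in shMETTL14 (log2 fold change 0.50, SE 0.144, adjusted p = 0.00632, edgeR quasi-likelihood test). It passed with the 2 shNC libraries far apart, and without shNC library 2 the call was lost, leaving 0 of the list called (PLD6 0.27, adjusted p = 0.141), and 0 passed an unadjusted p under 0.05. DESeq2 also called 0, with PLD6 at an adjusted p of 0.0794 and an unadjusted count of 1. TDRKH did not pass (-0.12, adjusted p = 0.174).

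GGACT, the commonest core of the m6A motif, was counted on the transcript strand of the same GENCODE 29 transcripts as the let-7 word. DGCR8 held 1.36 per kilobase and TARBP2 1.34, and 26.0% and 26.8% of tested genes held as many. LIN28B held 0.363 and DROSHA 0.189 per kilobase, and DICER1 (0.871) and XPO5 (0.932) lay near the median of all genes, 0.923. The called genes thus span both ends of this range. A motif is a description of letters, and m6A itself was not analysed here.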
